A study of Mus musculus with 4 samples.

Results

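Hemoglobin is built from alpha and beta globin chains, each of which carries a heme group, and 9 genes of this route were followed in mouse bone marrow progenitors: the alpha globins Hba-a1 and Hba-a2, the adult beta globins Hbb-bs and Hbb-bt, and the heme synthesis enzymes Alas2, Alas1, Alad, Urod and Fech. They were taken by symbol from the 27998 genes counted, and all 9 were found. The cells were live Lin-Sca1+cKit+ (LSK) cells, the bone marrow fraction that holds hematopoietic stem cells and multipotent progenitors, and their RNA was counted as unique molecular identifiers (UMIs, one per captured transcript 3′ end) in single cells. Both genotypes carried floxed alleles of Nup358 (gene symbol Ranbp2), a nucleoporin of the cytoplasmic side of the nuclear pore. Knockout (KO) mice were Nup358 fl/fl with R26-CreERT2, a tamoxifen-regulated Cre that acts in all tissues, controls were Nup358 fl/fl mice labelled wild-type, the animals were 9 to 12 weeks old, and tamoxifen was given on 3 consecutive days. The mouse strain and the day of collection of these libraries are not given in the sources used here. Each genotype had 2 libraries, each pooled from 3 bone marrows, so the unit of every test was the library and not the mouse or the cell.

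Heme synthesis begins and ends in mitochondria. The first step is made by ALAS1 in most tissues and by ALAS2 in the erythroid lineage, ALAD and UROD act in the cytosol on the way to protoporphyrin, and FECH inserts the iron. Globin genes and Alas2 are switched on strongly as erythroid progenitors mature under the factors GATA1 and KLF1, at a stage when cells lose the stem cell surface proteins Sca1 and cKit, so that an LSK sort is set against cells that make much hemoglobin.

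On GRCm38 the alpha globin genes lie on chromosome 11, Hba-a1 at chr11:32283511-32284465 and Hba-a2 at chr11:32296489-32297298. The beta globin genes lie next to each other on the minus strand of chromosome 7, Hbb-bs at chr7:103826534-103828096 and Hbb-bt at chr7:103812524-103813996. Alas2 is at chrX:150547375-150570638, Alas1 at chr9:106233455-106248654, Alad at chr4:62509169-62519918 and Urod at chr4:116989965-116994413. The transcripts of Hba-a1 and Hba-a2 were 99.8% identical and their last 150 bases 99.3%, so reads of the alpha globins may have been split between them or dropped, and the division between them is uncertain. Transcripts of Hbb-bs and Hbb-bt were 92.8% identical, but only 75.3% over the last 150 bases, so reads from that 3′ end can tell these genes apart. Of the windows of 90 bases in Hbb-bt, 55.5% occurred unchanged in Hbb-bs. Reads from such stretches may have been dropped, and how many was not measured. Alas1 and Alas2 each overlap a gene on the other strand, which strand-specific counting separates.

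The stretches of promoter shown here are those of the beta globin pair, whose counts diverged in these cells, and of Alas2, from RefSeq on GRCm38.p6. Positions are counted from the RefSeq transcription start, which for these genes lies inside the gene span given above. Parts of the windows therefore fall within those spans. Capitals mark matches on either strand to the CCAAT box, to the CACCC box or its longer form CACACCC, to the TATA box (spelled ATATAA or TATAAA) or to the GATA site (spelled AGATAA or TGATAA). The first pair of windows runs from base -96 to -67 of each beta globin gene, at chr7:103827995-103828024 and chr7:103813990-103814019 on the minus strand, and the second from -42 to -13, at chr7:103827941-103827970 and chr7:103813936-103813965. The Alas2 windows run from -100 to -71 and from -47 to -18 at chrX:150547317-150547346 and chrX:150547370-150547399 on the plus strand.
Hbb-bs, upper window: gagcCACACCCtggtaagggCCAATctgct
Hbb-bt, upper window: agggtaaCACCCtggcATTGGCCAATctgc
Hbb-bs, lower window: ccagggcagagcATATAAggtgaggtagga
Hbb-bt, lower window: gccagcATTGGgtATATAAAgctgagcagg
Alas2, upper window: gactactttgctttTTATCTttagcagagg
Alas2, lower window: cggaaggGGGTGGGGTGGGGTGggcggggc

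Both beta globin promoters held the TATA box and CCAAT, and CACACCC was in that of Hbb-bs alone. Within 250 bases before the start, Hbb-bs had 1 CACACCC and 1 GATA match, and Hbb-bt had neither. In the other direction, Hbb-bt had 3 CACCC and 3 CCAAT matches, against 1 and 1 in Hbb-bs. Of 32851 promoters of that length in the table, 16.7% held the TATA box, 33.8% CCAAT, 6.93% CACACCC, 52.0% CACCC and 16.6% the GATA site, so single matches of the commoner motifs are frequent. Identity over these 250 bases was 70.9% between the beta globin genes and 97.6% between the alpha globin genes.

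After filters 24973 of 25242 barcodes remained. Of the deposited barcodes, 10936 carried a barcode sequence whose UMI total was 3 times as high or more in a second library, and these were left out as copied barcodes, 14.8% and 81.8% of those deposited for control libraries 1 and 2 and 65.3% and 18.8% of those for KO libraries 1 and 2. The 14041 cells that passed both steps numbered 7830, 1200, 1589 and 3422 in the same order, with median UMIs of 6251 to 17707, and doublets were not removed. Cells were assigned to a gate when at least 3 genes of a marker list, none of them a member, were detected and more than of any other list, which placed 7872 cells. At least 3 markers of 2 or more lists were detected in 3707 cells (26.4%), so the gates share markers in many cells. Erythroid-gated cells with at most 1% globin UMIs were few, at 119, 24, 23 and 52, while the stem gate had 260 to 695 and the neutrophil gate 310 to 3143 per library. Ranbp2 stood at 127 and 101 CPM (UMIs of a gene per 1000000 UMIs of the cells summed) in the controls and 124 and 126 in the knockouts, but the Cre removes exon 2, far from the 3′ end that was counted, so these values check no deletion.

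Cells filled with hemoglobin transcripts were rare and sharply separated from all others. A cell was called hemoglobin-rich when the 4 globin genes gave over 1% of its UMIs, and 10 of 14041 cells passed. Their globin share ran from 19.3% to 90.1% with a median of 51.1%, whereas the highest share in any other cell was 0.705%. Of the remaining cells, 10250 had no globin UMI, 3394 had up to 0.1%, 383 had 0.1 to 0.5% and 4 had 0.5 to 1%. All 10 cells were in the control libraries, 5 in each, at 0.0639% of cells in control library 1 (95% Clopper-Pearson interval 0.0207 to 0.149) and 0.417% in control library 2 (0.135 to 0.970). None was found among 1589 and 3422 KO cells, which allows shares of up to 0.189% and 0.0877% by the limit of 3 counts. The KO shares were lower by 0.24 percentage points on average, with an exact permutation p of 0.333, the smallest that 2 against 2 libraries can give, so this difference could not pass the threshold. With all deposited barcodes kept, 19 cells passed, at 7, 5, 4 and 3 per library, and the difference was 0.0027 points. The 9 added barcodes were copies of 4 sequences that were rich in a control library.

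**Figure D1:**
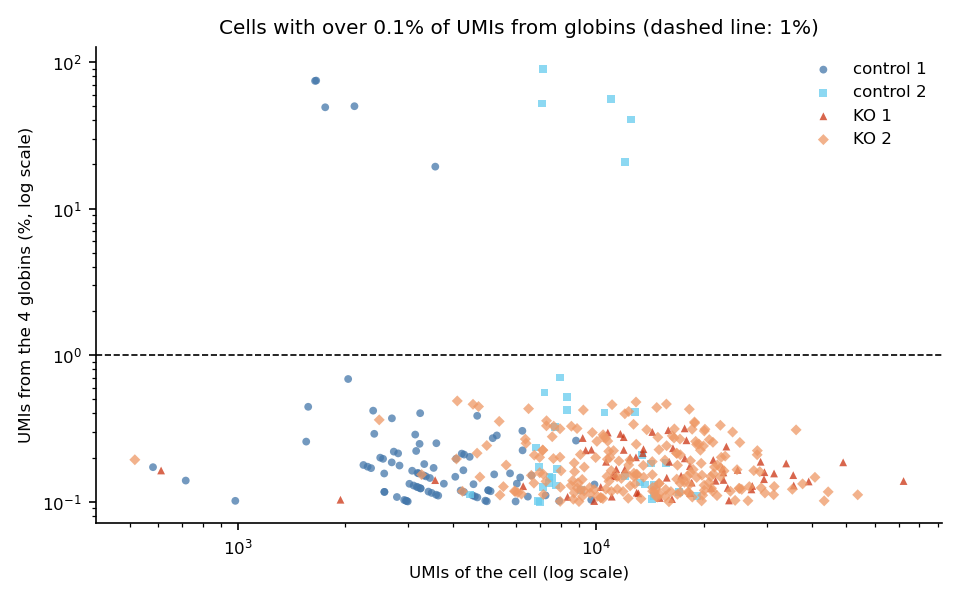
Share of UMIs from the 4 globin genes in single cells, by library, with a logarithmic axis. The 10 cells above the 1% line sit between 19.3% and 90.1%, 5 in each control library and 0 in the KO libraries, and no cell lies between 1% and 10%.

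The 10 hemoglobin-rich cells carried the red cell program, and no transcript of the sorted proteins was counted in them. Slc4a1, the red cell anion exchanger, was detected in 10 of 10, and 3 to 9 of the 9 late erythroid genes counted were detected per cell. Kit and Ly6a, which encode the sorted surface proteins cKit and Sca1, had 0 UMIs in all 10 cells. The limit of 3 counts was 279 CPM in control library 1 and 60.2 in control library 2. The other cells of these libraries had 96.0 and 103 CPM of Kit and 133 and 190 of Ly6a. So the rich cells of control library 1 were too shallow to show a lack of either gene. In those of control library 2 the globins took 478319 CPM, which lowers the CPM of every other gene. A lack of Kit is therefore not shown there either. The marker rule placed 7 of them in the erythroid gate, and the other 3 had 223 to 248 genes each and fell in no gate. They held 95 of all 100 Alas2 UMIs (95%), with 2 to 18 per cell and a median of 8.5. The other 5 Alas2 UMIs lay in 5 separate cells, so Alas2, the erythroid form of the first enzyme, was not measurable in the remaining cells of any gate. Alas1 had 0 UMIs in all 10, under the same limits of 279 and 60.2 CPM.

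Pooled over the 4 libraries, most of the alpha globin and Hbb-bs came from these few cells, but most Hbb-bt did not. They held 98.9% of the Hba-a1 UMIs, 99.5% of Hba-a2 and 97.4% of Hbb-bs, against 19.7% of Hbb-bt (5145 of 26075 UMIs). By library they held 27.6% and 73.8% of Hbb-bt in control libraries 1 and 2, so in control library 2 most of it was theirs. The KO libraries, which had no such cell, gave 5370 and 11809 of the Hbb-bt UMIs. In the rich cells of control libraries 1 and 2, Hbb-bs stood at 300512 and 266108 CPM, Hbb-bt at 79014 and 86201, Hba-a1 at 55654 and 86221, and Hba-a2 at 37040 and 39790. Among the enzymes the levels there were 3164 and 1224 CPM for Alas2, 1396 and 722 for Alad, 651 and 522 for Urod and 931 and 381 for Fech. Cpox and Ppox, enzymes that act after Urod, were detected in 8 of 10 cells each. A 10-cell class from 2 libraries gives no genotype comparison.

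In the pool of all cells outside the hemoglobin-rich class the globin RNA was almost entirely Hbb-bt. In the rich cells Hbb-bs was the major beta globin, at 63.6% and 55.6% of globin UMIs in control libraries 1 and 2, and Hbb-bt gave 16.7% and 18.0%, which is 0.263 and 0.324 Hbb-bt UMIs per Hbb-bs UMI. In all other cells Hbb-bt was 94.0% and 98.0% of globin UMIs for control libraries 1 and 2 and 98.3% and 98.0% for KO libraries 1 and 2, with 2371, 1553, 5463 and 12046 UMIs. The ratio of Hbb-bt to Hbb-bs was then 23.2, 76.1, 62.4 and 50.3. In stem-gated cells it was 23.5, 149, 96.6 and 73.9, resting on 12, 5, 25 and 52 Hbb-bs UMIs. Single gates with few globin UMIs were more mixed. The erythroid gate had 32, 6, 40 and 44 Hbb-bt UMIs against 15, 0, 5 and 9 of Hbb-bs, with 22 of Hba-a1 in control library 1. The megakaryocyte gate had 16, 3, 157 and 442 against 7, 3, 9 and 38 of Hbb-bs. The ratios of the 2 classes do not overlap in either control library. No hemoglobin-rich cell was kept in the KO libraries, so their ratio was not measured there. The part of free RNA in these counts was not tested.

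With hemoglobin-rich cells left out, Hbb-bt was highest in stem-gated cells and had its lowest mean over the 4 libraries in erythroid-gated ones, among gates with at least 10 cells in every library. With them kept, erythroid minus stem turned from -2.90 to 2.54, since the rich cells of the erythroid gate stood at 59669 and 72414 CPM. Its level in the stem gate was 131 and 236 CPM in control libraries 1 and 2 and 333 and 338 in KO libraries 1 and 2. In the erythroid gate it was 26.9, 15.1, 60.0 and 35.7 CPM in the same order, so the gates do not overlap. Erythroid minus stem was -2.90 on the log2 scale (SE 0.32, adjusted p 2.14e-08, edgeR's quasi-likelihood method, Benjamini-Hochberg adjusted), where 39.0% of 11326 genes were called. Cells of no gate came next below the stem gate, at 63.2, 81.2, 169 and 254 CPM, and in this gate all 4 libraries were below their own stem-gated cells. Stem minus no gate was 0.94 (adjusted p 0.00626, 4.08% of genes called). The stem gate also exceeded the megakaryocyte gate by 1.76 (15.0% called), the monocyte and dendritic gate by 1.84 (17.4%), the neutrophil gate by 2.16 (45.9%) and the lymphoid gate by 2.27 (24.9%), all past the threshold in edgeR. At the low end, erythroid minus neutrophil was -0.74 (adjusted p 0.116) and erythroid minus lymphoid -0.64, which did not pass, and erythroid minus megakaryocyte was -1.15 (adjusted p 0.0273, edgeR), which did not pass without KO library 2 (-0.41). Megakaryocyte-gated cells stood at 18.3 and 8.08 CPM in control and 115 and 169 in KO libraries, so in both controls the erythroid gate was the higher of the pair and in both knockouts the lower.

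Lymphoid cells, which should make no globin, were taken as the reference for these counts. After each cell was thinned to 1000 UMIs, 7.87%, 10.4%, 23.3% and 22.2% of stem-gated cells had an Hbb-bt UMI in control libraries 1 and 2 and KO libraries 1 and 2, against 0%, 0%, 0% and 4.88% of lymphoid-gated cells. The lymphoid gate of the control libraries had 11 and 12 cells of that depth, which sets a weak limit there. In cells with at least 3 mature B cell markers and no Kit UMI, 0% of 99 and 2.17% of 184 cells had one in the KO libraries. Without thinning, these mature B-like cells had 23 and 59 Hbb-bt UMIs in KO libraries 1 and 2, in 3 and 12 cells. Their level was 47.3 and 35.2 CPM, above the 18.9 and 25.1 of neutrophil-gated cells in control libraries 1 and 2. Erythroid-gated cells, at 2.52%, 0%, 0% and 5.77%, did not stand clear of the lymphoid shares. Unthinned, their 32, 6, 40 and 44 Hbb-bt UMIs lay in 16, 5, 5 and 11 cells. Whether these counts are background was not tested. Mature B-like cells had no UMI of Hbb-bs or of the alpha globins. Without thinning, the stem-gate shares were 23.0%, 39.2%, 62.7% and 61.9%, which follow depth as well as level.

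The Hbb-bt counts were spread unevenly among stem-gated cells. The cells of the top 10% by Hbb-bt count held 80.5% and 73.0% of the gate's Hbb-bt UMIs in control and 53.1% and 56.1% in KO libraries, and the highest cells had 23, 56, 99 and 77 UMIs. Over all gates 250 cells with at most 1% globin UMIs had at least 20 Hbb-bt UMIs, of which 106 were stem-gated, 98 in no gate and 1 erythroid-gated. In these 250 cells, 8608 Hbb-bt UMIs stood beside 82 Hbb-bs UMIs, 223 cells had no Hbb-bs and 248 no alpha globin. By library genotype 14 of the 250 were control and 236 KO cells, out of 7825 and 1195 control and 1589 and 3422 KO cells. The cut of 20 UMIs was on Hbb-bt itself, which raises Hbb-bt against Hbb-bs in the cells it picks. It was made without thinning. Median UMIs were 6251 and 13175.5 in control and 17707 and 14398.5 in KO libraries, so this split is not matched for depth.

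Hbb-bt also differed by the number of stem markers a cell carried, without a gate threshold. With every cell thinned to 2000 UMIs, cells with 0, 1, 2 and 3 or more stem markers had 30.4, 73.8, 92.1 and 209 CPM of Hbb-bt in control library 1 and 60.9, 156, 243 and 303 in control library 2. In KO library 1 the values were 109, 240, 317 and 386. In KO library 2 they were 197, 267, 382 and 324, so the level was higher at each step in 3 of 4 libraries and lower at the last step in the other. These are descriptions without a test.

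**Figure D2:**
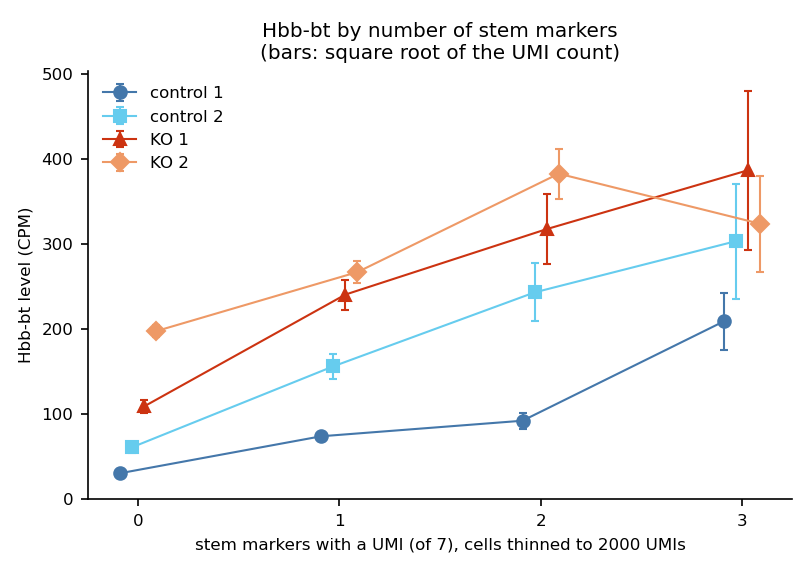
Hbb-bt level in CPM against the number of stem markers detected per cell, each cell thinned to 2000 UMIs, 1 line per library. Levels run from 30.4 to 197 CPM with no marker and from 209 to 386 CPM with 3 or more, where each point rests on 22 to 91 cells.

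The other globins gave little signal outside hemoglobin-rich cells. Hbb-bs in the erythroid gate stood at 12.6, 0, 7.50 and 7.30 CPM in control libraries 1 and 2 and KO libraries 1 and 2, with the megakaryocyte gate at 8.02, 8.08, 6.57 and 14.5. These ranges overlap, and the difference of -0.18 did not pass the test. In the stem gate Hbb-bs was 5.56, 1.58, 3.45 and 4.58 CPM, in the neutrophil gate 0.633, 1.04, 0.803 and 0.604, and lymphoid-gated cells had none. Erythroid-gated cells exceeded neutrophil-gated cells in Hbb-bs by 3.34 and monocyte and dendritic-gated cells by 2.98 on the log2 scale, both past the threshold. Against cells of no gate the difference was 1.37 (adjusted p 0.0367, edgeR), which did not pass without control library 1 (0.61) or without KO library 1 (1.48). Alpha globin UMIs were found in 26, 11, 4 and 1 of the remaining cells, and control library 1 had 22 of its Hba-a1 UMIs in erythroid-gated cells.

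The enzymes of the middle and the end of the heme pathway were highest on average in erythroid-gated cells. Alad, which makes porphobilinogen from aminolevulinate, was at 299.7 and 154 CPM in the erythroid gate of control libraries 1 and 2 and at 84.0 and 157 in KO libraries 1 and 2. Stem-gated cells had 68.1, 37.2, 75.6 and 85.2 in the same order. The erythroid level was higher within each of the 4 libraries, by least in KO library 1, whose 84.0 lies inside the stem-gate range. Urod, which decarboxylates uroporphyrinogen, was at 127, 80.6, 78.0 and 81.9 CPM in the erythroid gate and 61.1, 41.9, 43.3 and 53.1 in the stem gate, without overlap. Fech, the ferrochelatase, was at 42.1, 30.2, 13.5 and 18.6 CPM against 14.8, 16.7, 14.1 and 11.8, with the erythroid level higher in 3 of 4 libraries and not in KO library 1.

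In the fit over all gates, erythroid minus stem was 1.47 for Alad (SE 0.19, adjusted p 2.07e-07), 1.02 for Urod (SE 0.11, adjusted p 1.78e-08) and 1.00 for Fech (SE 0.23, adjusted p 9.41e-04), where 18.8% of all genes were called higher in edgeR. Of 42 pairs of member and contrast with another gate, 29 passed, in both directions. Among them Hbb-bt was lower in 4 contrasts, Alas1 lower in 2 and Hbb-bs higher in 4. Alad passed as higher in 7 of 7 contrasts and Urod and Fech in 6 of 7, the exception being the basophil and mast gate, which rested on 2 library sums. Called shares over all genes were 18.5% for the megakaryocyte gate, 6.02% for basophil and mast, 25.6% for neutrophil, 31.6% for monocyte and dendritic, 27.8% for lymphoid and 33.0% for no gate. Control library 1 carried much of the Fech difference, which without it was 0.63 against stem, 0.80 against neutrophil and 0.79 against megakaryocyte and passed in none of them. The Urod difference from the megakaryocyte gate did not pass without it either (0.21).

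**Figure D3:**
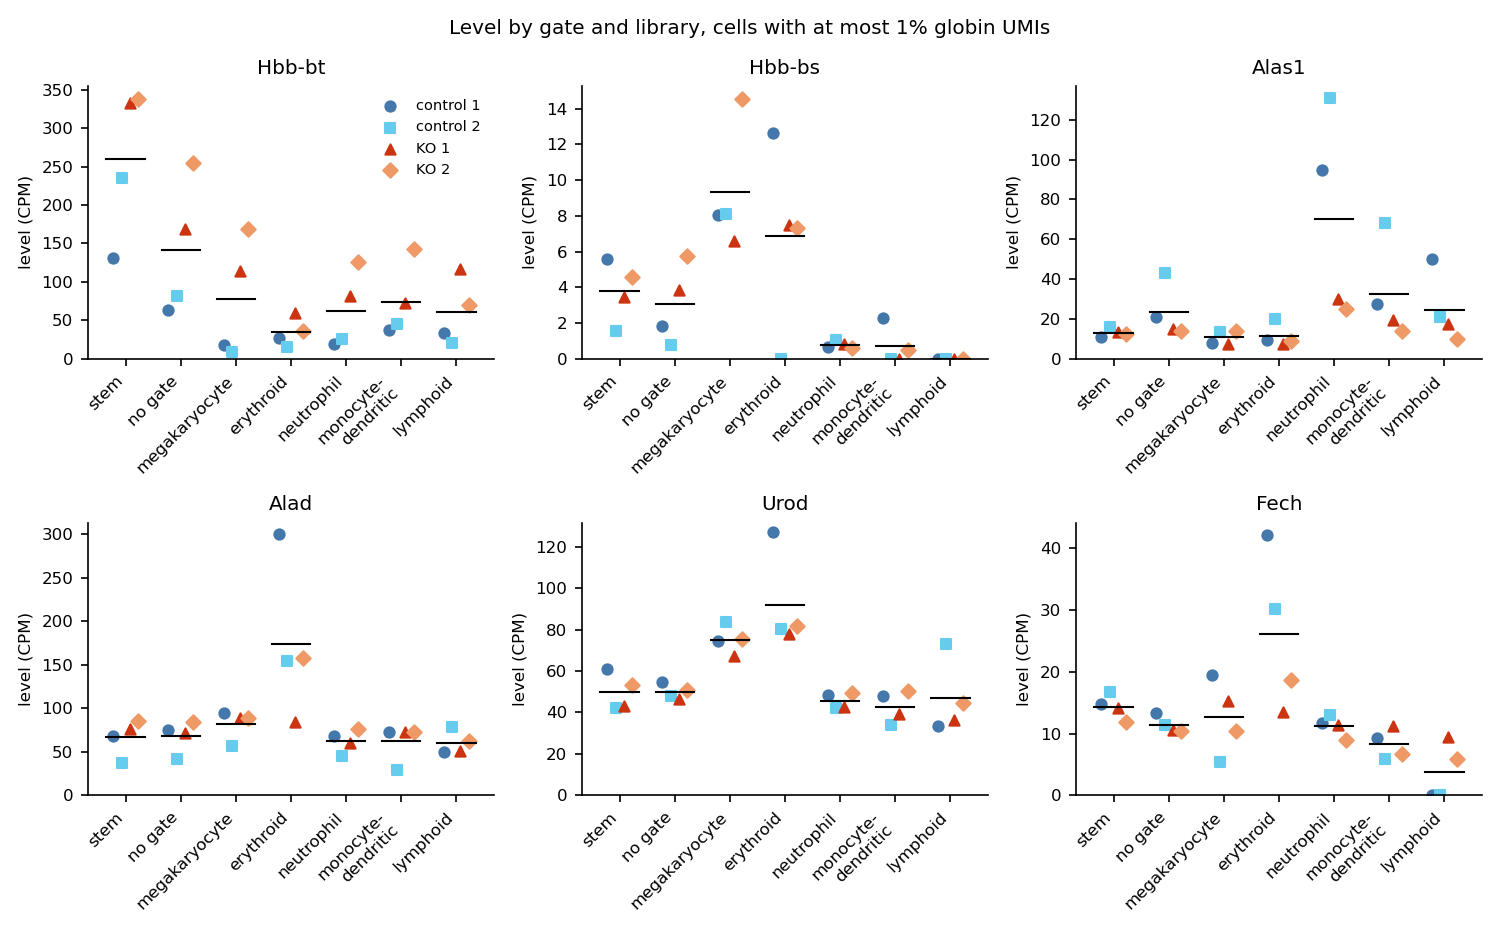
Levels of the members in CPM by gate, 1 point per library, in cells with at most 1% globin UMIs. Hbb-bt is highest in the stem gate (131 to 338 CPM) and Alas1 in the neutrophil gate (24.9 to 131 CPM). Alad and Urod are highest on average in the erythroid gate, but not in every library. The megakaryocyte gate was above it for Alad in KO library 1 (88.4 against 84.0 CPM). The same held for Urod in control library 2 (83.5 against 80.6 CPM).

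Alas1, the form of the first enzyme made in most tissues, followed the neutrophil gate instead. Neutrophil-gated cells had 95 and 131 CPM in control libraries 1 and 2 and 29.96 and 24.9 in KO libraries 1 and 2. Erythroid-gated cells had 9.26, 20.1, 7.50 and 8.92 CPM, stem-gated cells 10.7, 15.8, 13.2 and 12.4, and neither range reaches the neutrophil levels. Neutrophil minus stem was 2.16 and neutrophil minus megakaryocyte 2.27 (28.2% called), and the differences from no gate, lymphoid and monocyte and dendritic cells were 1.62 (35.1%), 1.80 (26.8%) and 1.21 (18.3%), all past the threshold in edgeR.

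Other genes of the pathway were also higher in erythroid-gated cells. Of the other heme enzymes, Cpox, Uros and Ppox, named outside the naming rule and after their values were seen, were higher in erythroid-gated than in stem-gated cells, with log2 differences of 2.38, 1.56 and 0.88. Over 5 lists (other heme enzymes, heme transport and assembly, iron uptake and clusters, heme breakdown, and regulators) 43 genes could be tested, and 25 were higher and 3 lower, where 18.8% of all genes were called higher. By list 5 of 9 transport genes, 8 of 15 iron genes, 1 of 4 breakdown genes and 7 of 11 regulators were higher. The list medians were 0.47 for transport, 0.67 for iron and 0.76 for regulators, against -0.04 over all genes. The 25, the 7 and the regulator median include Klf1, whose rise was set by its use in the gate. Largest among the rises were Gata1 at 4.41 and Slc40a1, the iron exporter ferroportin, at 4.02, beside Klf1, which is a marker of the gate and so no finding. The 3 falls were Hmox2, a heme oxygenase, at -0.75, Lmo2 at -0.65 and Iscu, an iron-sulfur cluster scaffold, at -0.27.

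By genotype, Hbb-bt was higher in KO than in control libraries in several gates. In megakaryocyte-gated cells it was at 18.3 and 8.08 CPM in control and 115 and 169 in KO libraries, and KO minus control was 3.27 (SE 0.34, adjusted p 7.96e-04, 0.655% of genes called). In neutrophil-gated cells it was at 18.9 and 25.1 against 81.4 and 125 CPM, a difference of 2.22 (SE 0.26, adjusted p 0.00718, 3.68% called). In cells of no gate the levels of 63.2 and 81.2 against 169 and 254 CPM gave 1.56 (SE 0.24, adjusted p 0.0125, 6.05% called). This call did not pass when cells were thinned before gating. In stem-gated cells 131 and 236 against 333 and 338 CPM gave 0.86 (SE 0.25, adjusted p 0.0465, 12.1% called), all by edgeR's quasi-likelihood test, and in none of the 4 did the genotypes overlap. Stem-gated calls in the higher direction made up 4.86% of genes.

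The megakaryocyte-gated controls, where 1.56% and 0% of thinned cells had an Hbb-bt UMI, did not stand clear of the lymphoid shares either. Nor did the neutrophil-gated controls, at 2.01% and 2.27%, while neutrophil-gated cells of KO libraries 1 and 2 had 6.08% and 9.13%. These calls differ in how far they rest on single libraries. The neutrophil call passed whichever library was left out, with differences of 1.86 to 2.49. The megakaryocyte call did not pass without KO library 1 (3.53) or KO library 2 (2.96), the stem call without KO library 1 (0.89, adjusted p 0.0533) or KO library 2 (0.85, adjusted p 0.111), and the no gate call without KO library 2 (1.22, adjusted p 0.143), all in edgeR. In the gates that did not pass, KO minus control was 0.99 in erythroid-gated cells (SE 0.39, adjusted p 0.557, 0.160% called), 1.34 in monocyte and dendritic cells (SE 0.31, adjusted p 0.0764, 1.66% called) and 1.89 in lymphoid cells (SE 0.60, adjusted p 0.342, 0.0362% called). Over all cells with at most 1% globin UMIs Hbb-bt stood at 37.8 and 81.0 against 164 and 219 CPM, with a difference of 1.65 (SE 0.36, adjusted p 0.0572, 3.38% called). That value passed in edgeR whenever 1 library was left out, at 1.18 to 2.33. Stem-gated cells were 4.88% and 21.7% of kept cells in control and 20.8% and 20.3% in KO libraries. The part of this cell make-up in the Hbb-bt difference over all cells was not tested.

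Cell depth and the levels of the gate markers moved with genotype, and their part in the Hbb-bt difference was not tested. Median UMIs per cell were 6251 and 13175.5 in control libraries 1 and 2 and 17707 and 14398.5 in KO libraries 1 and 2. The 7 stem markers found in the files summed to 941 and 774 CPM in stem-gated control cells and 503 and 515 in KO cells. After thinning, the stem-gated shares of 7.87% and 10.4% in control and 23.3% and 22.2% in KO libraries still did not overlap.

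Hbb-bs and the alpha globins gave fewer KO results. In cells of no gate Hbb-bs was at 1.83 and 0.763 CPM in control and 3.83 and 5.73 in KO libraries, a difference of 1.78 (SE 0.39, adjusted p 0.0360, edgeR) that did not pass without KO library 2 (1.44, adjusted p 0.436). It did not pass either when cells were thinned before gating, and with the hemoglobin-rich cells of the controls kept it turned to -5.96. Over all cells Hbb-bs differed by 1.30 (SE 0.35, adjusted p 0.0918), or -6.80 with those cells kept, and Hba-a1 by -2.55 (SE 0.70, adjusted p 0.0957) in the same test. Hba-a2 and Alas2 had too few UMIs to be tested in any gate.

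Alas1 was lower in KO cells, over all cells and in the neutrophil gate. Over all cells it was at 62.2 and 70.3 CPM in control and 19.7 and 15.5 in KO libraries, without overlap, and fell by 1.96 on the log2 scale (SE 0.18, adjusted p 0.00656, edgeR). It was the 1 member of 7 tested that passed there, where 3.38% of all genes were called. Neutrophil-gated cells were 40.1% and 25.8% of kept cells in control and 24.9% and 15.4% in KO libraries. The part of this cell make-up in the Alas1 fall over all cells was not tested. In neutrophil-gated cells the levels of 95 and 131 against 29.96 and 24.9 CPM gave -2.08 (SE 0.22, adjusted p 0.00471), and both calls passed whichever library was left out. In stem-gated cells, with 10.7 and 15.8 against 13.2 and 12.4 CPM, the difference was -0.08, and the genotypes overlapped. The 8 neutrophil markers summed to 11502 and 9876 CPM in neutrophil-gated control cells and 2612 and 2189 in KO cells, and 6 mature neutrophil genes had a median difference of -3.08 against -0.01 over all genes. The part of these markers in the Alas1 difference was not tested. In monocyte and dendritic cells Alas1 differed by -1.52 (SE 0.45, adjusted p 0.170) and in cells of no gate by -1.13 (SE 0.32, adjusted p 0.0697) in edgeR.

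Alad, Urod and Fech did not pass the test between genotypes in any gate. In erythroid-gated cells KO minus control was -0.94 for Alad (SE 0.33, adjusted p 0.469), -0.44 for Urod (SE 0.27, adjusted p 0.824) and -1.20 for Fech (SE 0.38, adjusted p 0.395) in edgeR. Fech levels of 42.1 and 30.2 against 13.5 and 18.6 CPM did not overlap, while Alad did, with KO library 2 at 157 above control library 2 at 154. The erythroid markers summed to 4046, 2785, 1526 and 2896 CPM and the late erythroid genes to 189, 111, 65.96 and 54.3 in control libraries 1 and 2 and KO libraries 1 and 2, and their part was not tested. Without control library 2, Alad passed in this gate at -1.25. Over all cells the differences were 0.30 for Alad, -0.04 for Urod and -0.25 for Fech, with adjusted p of 0.529, 0.899 and 0.415 in edgeR.

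The differences between genotypes themselves differed between gates for 3 members, by an interaction term in edgeR. The Hbb-bt difference was larger by 2.25 in the megakaryocyte than in the stem gate (1 of 6 members passed, 1.33% of genes called) and larger by 1.21 in the neutrophil than in the stem gate (3 of 6 members, 17.0% called). The Alas1 difference was lower by -2.07 in the neutrophil than in the stem gate. For Alad the difference in erythroid-gated cells was lower than in cells of no gate by -1.33 (1 of 6 members, 0.383% called), which did not pass without KO library 1 (-1.04).

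Of the 5 lists around the members, few genes passed between genotypes. In stem-gated cells 4 of 41 genes were higher in KO cells, where 4.86% of all genes were, and 0 were lower. Among the 4 were Hmox1, the inducible heme oxygenase, at 2.67 and Tfrc, the transferrin receptor, at 0.89. Over all cells 1 of 43 passed, Hmox1 at 1.89, where 3.38% of all genes were called, and in erythroid-gated cells 0 of 40, where 0.160% were. Macrophage and mature B cell genes also had higher medians in KO libraries. Over all cells the 7 macrophage genes, of which Hmox1 is one, had a median difference of 1.37, and the 1 past the threshold was Hmox1 itself. Of the mature B cell genes 4 of 5 passed as higher, with a median of 4.89. In monocyte and dendritic cells the 4 macrophage genes tested had a median of 2.65, and the 1 that passed was again Hmox1, at 2.95. The part of such cells in the Hmox1 difference was not tested. Gata1 and Klf1 differed by 0.29 and -0.53 over all cells, with adjusted p of 0.453 and 0.350 in edgeR.

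The genes whose levels tracked the summed globins most closely over 30 gate-by-library sums were Msi2 (Pearson r 0.84), Aldh7a1 (0.83), 1500009L16Rik (0.83), Hlf (0.83) and Dnmt3b (0.83), of 8040 genes ranked. Hlf is one of the stem markers used for the gate, and since Hbb-bt makes up most of the globin here, these are the genes most like Hbb-bt. The sums share libraries and depth, so the r values are descriptions. Alas2 had UMIs in only 4 of the 30 sums, and its 5 most similar genes, Ttc3, Gramd1a, Ubxn6, 2810403A07Rik and Scd2, had r of 0.49 to 0.53, too low a base to read.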

How the data were processed

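The authors sequenced 10x Genomics 3′ libraries of sorted LSK cells and deposited, per library, a matrix of UMI counts for 27998 genes, without normalization; the submitters' processing notes name Cell Ranger 3.1 and mm10. Members and lists were chosen with earlier results of these data known. Barcodes under 200 genes or over 10% mitochondrial UMIs were dropped, as was a barcode whose sequence had a 3 times higher UMI total or more elsewhere in the series. Kept UMIs numbered 59033602, 18846887, 32736147 and 53844729 (control 1 and 2, KO 1 and 2). UMIs were summed per gate and library and tested with edgeR 4.0.16 (filterByExpr, trimmed mean of M-values, quasi-likelihood test, two-sided, Benjamini-Hochberg over all genes tested, threshold 0.05), with hemoglobin-rich cells (over 1% globin UMIs) left out; contrasts between gates had a library block. Gates needed at least 10 cells. Intervals and floors (95%, 3 counts) cover counting error only. All members were named, with Gata1, Klf1 and Ranbp2, and of the lists at most the 3 largest rises and falls past the threshold. Alternatives included DESeq2 1.42.0, no low-count filter, all barcodes, hemoglobin-rich cells kept, thinning before gating and leaving out each library. The contrasts with stem-gated and neutrophil-gated cells, their genotype interactions, the mature B-like background and the stem marker counts were added after the data were seen. Scripts were tested on simulated data. Python 3.11.15, numpy 2.4.6, scipy 1.17.1, R 4.3.3 and GENCODE M21 were used. Nothing says that the 2 libraries of a genotype came from separate days, so p-values measure the spread between pools. Results for some genes of the lists are not reported here.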

Additional observations from a re-analysis of the deposited data

Results flagged for a closer look

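In 5 cases the difference between genotypes itself differed between gates, by an interaction term in edgeR with Benjamini-Hochberg adjustment. Each is given as a value, with no explanation, and all except the first were chosen after the data were seen. The KO minus control difference of Alad was lower by -1.33 (SE 0.22, adjusted p 0.00129) in erythroid-gated cells than in cells of no gate, where 0.383% of genes were called, and it did not pass without KO library 1 (-1.04, adjusted p 0.132).

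Hbb-bt differed by genotype more in the megakaryocyte gate than in the stem gate, by 2.25 (SE 0.30, adjusted p 4.02e-07, 1.33% of genes called). The thinned Hbb-bt shares of the megakaryocyte-gated and the neutrophil-gated controls did not stand clear of the lymphoid shares. The Hbb-bt difference was also larger in the neutrophil gate than in the stem gate, by 1.21 (SE 0.14, adjusted p 2.12e-07, 17.0% called). Alas1 fell more in the neutrophil gate than in the stem gate, by -2.07 (SE 0.19, adjusted p 2.35e-09). Alad differed between these gates by -0.41 (SE 0.12, adjusted p 0.0183), which did not pass without control library 2 (-0.34) or KO library 1 (-0.36). With 2 libraries per genotype no library could be tested as standing apart from its group.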

How the results depend on the processing

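Of 586 repeats of 52 single results, 490 kept direction and side of the threshold, 52 newly passed, 29 no longer passed and 15 reversed. The counts of members called below come without the share of all genes called under the same alternative. They describe how far calls moved and show nothing particular to the members. With hemoglobin-rich cells kept, KO minus control member calls became 5 over all cells (1 in the report), 5 in the erythroid gate (0), 4 in no gate (2), and 51 between gates (29). The alternative adds those cells, so Hbb-bs reversed to -6.80 over all cells and -5.96 in no gate, Hbb-bt to -6.45 in the erythroid gate, and erythroid minus other gates reversed for Hbb-bt to 2.54 (stem), 2.98 (no gate), 4.54 (neutrophil) and 4.06 (megakaryocyte) and for Hbb-bs to 6.42 (megakaryocyte). For the rest the cause was not tested. DESeq2 called 3 members over all cells. Without a low-count filter calls were 4 over all cells, 1 erythroid, 4 in no gate and 7 in the 5 other gates (4). A block that paired control library 1 with KO library 2, and control library 2 with KO library 1, gave the same 4, 1, 4 and 7. No label gives this pairing. Replicate numbers share only a number (same-number r -0.063), and the replicate block gave 4, 0, 3 and 7 calls. Thinning before gating gave 0 calls in no gate, 0.41 for Hbb-bs erythroid minus megakaryocyte, and could not be fitted for the erythroid, megakaryocyte and lymphoid gates by genotype. Without a library block 23 calls remained between gates.

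Leaving out 1 library gave 2 to 4 calls over all cells, 0 to 1 erythroid, 0 to 4 in no gate (0 without KO library 2), 2 to 9 in other gates, 23 to 28 between gates and 0 to 2 interactions. It moved the rich-cell share difference from -0.417 to -0.0639, and all barcodes reversed it to 0.0027. Reversals were Alad over all cells (-0.016 to 0.71), Urod over all cells (-0.16 to 0.068, with 0.039 also), Alas1 in the stem gate (-0.32 to 0.35) and, erythroid minus megakaryocyte, Hbb-bs (-0.73 to 0.31) and Alas1 (-0.48 to 0.26). The mean share of stem-gated cells with Hbb-bt was 15.9% thinned and 46.7% unthinned. Depth limits Alas2 and Hba-a2 outside rich cells.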
